A study of Mus musculus with 9 samples.

Results

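The Ifi200 genes of the mouse, also called the PYHIN family, lie side by side in a cluster on chromosome 1. Described here are 6 of them, Ifi202b, Ifi203, Ifi204, Ifi205, Mnda and Aim2, which are 6 of the 25860 genes in the count table. They were taken by symbol, and the set was chosen by a measured value, the low count of Ifi202b in IRE1KO against WT in these same libraries, with its relatives and the interferon state around it. Differences between IRE1KO and WT in the 6 genes are therefore given as a description, without a test.

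The libraries came from calvarial cells of newborn mice aged 2 to 4 days. Cells carrying Osx1-Cre, a recombinase driven by the osterix promoter of the osteoblast lineage, were sorted by flow cytometry, grown in alpha-MEM with 10% FBS and harvested for polyA RNA at 90% confluence. Each library held the cells of 3 to 5 pups and counted as 1 biological replicate. The labels name 5 libraries IRE1KO and 4 WT. Both groups shared the Osx1-Cre sort and the culture. The labels give the genotype only as IRE1KO or WT, and no source used here states the strain or the litters of the pups.

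PYHIN proteins pair a pyrin domain, which binds other pyrin domains, with HIN domains, which bind double-stranded DNA. Interferon raises the transcription of many of them. Aim2 senses DNA in the cytosol and assembles an inflammasome through the adaptor ASC, whereas the product of Ifi202b has HIN domains but no pyrin domain and can hold Aim2 back. The product of Ifi204 is known in bone cells as a partner of Runx2 during osteoblast differentiation. Ifi202b is also known as a gene whose expression varies between inbred strains, being low in C57BL/6 mice and high in NZB mice.

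Promoter letters are shown for Ifi202b, the gene close to absent in IRE1KO, and for the 3 relatives whose window held the interferon motif. The 250 bases before the RefSeq transcription start (GRCm38.p6, the C57BL/6J genome, minus strand, written 5′ to 3′) lie at chr1:173982845-173983094 for Ifi202b, chr1:173942493-173942742 for the downstream of the start sites of Ifi203, chr1:174031756-174032005 for Ifi205 and chr1:173913047-173913296 for Mnda. Capitals mark GAAANNGAAA, the core of the element bound by interferon regulatory factors, and in Ifi202b TTCNNNGAA, the core of the element bound by STAT dimers. Both strands were searched.
Ifi202b: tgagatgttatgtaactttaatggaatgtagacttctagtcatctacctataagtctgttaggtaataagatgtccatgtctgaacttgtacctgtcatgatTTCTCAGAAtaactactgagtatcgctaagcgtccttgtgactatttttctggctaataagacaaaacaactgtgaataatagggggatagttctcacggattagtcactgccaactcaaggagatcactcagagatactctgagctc
Ifi203: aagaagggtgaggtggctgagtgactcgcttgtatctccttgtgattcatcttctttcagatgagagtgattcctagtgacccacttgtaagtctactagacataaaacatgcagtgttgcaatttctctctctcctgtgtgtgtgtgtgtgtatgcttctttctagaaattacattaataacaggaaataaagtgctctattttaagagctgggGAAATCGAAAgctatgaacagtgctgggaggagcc
Ifi205: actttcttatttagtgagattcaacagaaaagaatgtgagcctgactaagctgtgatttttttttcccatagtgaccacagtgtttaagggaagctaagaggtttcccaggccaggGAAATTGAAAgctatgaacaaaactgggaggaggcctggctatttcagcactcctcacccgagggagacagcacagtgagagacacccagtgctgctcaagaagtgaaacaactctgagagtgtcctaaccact
Mnda: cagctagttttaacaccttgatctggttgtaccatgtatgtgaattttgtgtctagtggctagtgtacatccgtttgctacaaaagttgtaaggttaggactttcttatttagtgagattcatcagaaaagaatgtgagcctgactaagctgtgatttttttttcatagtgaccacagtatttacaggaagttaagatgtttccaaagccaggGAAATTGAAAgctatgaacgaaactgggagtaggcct

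GAAANNGAAA was found in the window, which runs on to 50 bases after the start, of 3 of the 5 family genes described here that had one in the RefSeq table. In Ifi203 it read GAAATCGAAA and covered bases -35 to -26 from the downstream start, while the window of the upstream start held no match. In Mnda it read GAAATTGAAA at -37 to -28, and in Ifi205 the same letters stood at -134 to -125. Ifi205 also held a match on the opposite strand, TTTCACTTTC, at bases 23 to 32 from the start. The motif was not in the windows of Ifi202b and Aim2, and Ifi204 had no entry. Over all 12 PYHIN genes of the count table, 8 of the 11 with a window held it, beside 3.44% of all 32851 promoter windows. The first is a count of genes with a match in any of their windows, and the second a share of single windows. TTCNNNGAA stood in the Ifi202b window as TTCTCAGAA at -148 to -140, a motif found in 8.30% of all windows. A match describes the letters and is not a measured binding site.

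Library totals ran from 18784636 to 22028075 counts. Ern1, which encodes IRE1 alpha, measured 49.8 to 55.8 CPM (counts divided by the library size in units of 1e6, scaled by TMM) in IRE1KO and 41.5 to 54.2 in WT, with a log2 fold change of 0.17 ± 0.08 (SE, edgeR adjusted p = 0.306). A total over the gene includes reads outside a deleted stretch, so it does not check the genotype. The osteoblast-lineage genes Runx2 (67.9 ± 2.42 CPM in IRE1KO, SD, n = 5, and 66.9 ± 6.29 in WT, n = 4) and Col1a1 (23304 ± 1126 and 20395 ± 7219) were expressed in both groups, whereas Bglap, the osteocalcin gene of mature osteoblasts, did not exceed 0.192 CPM in any library. The edgeR quasi-likelihood test of IRE1KO against WT called 87 of 13712 tested genes at a Benjamini-Hochberg adjusted p under 0.05. That is 0.634% of the tested genes, with 35 higher (0.255%) and 52 lower (0.379%) in IRE1KO. The CPM of the groups did not overlap in 950 genes, or 6.93%.

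Ifi202b (ENSMUSG00000026535, chr1:173962568-173982744, minus strand) was close to absent from the IRE1KO libraries and present in every WT library. IRE1KO libraries 1 to 5 held 2, 0, 0, 0 and 0 counts. WT libraries 1 to 4 held 64, 64, 220 and 299 counts, which is 3.27, 3.28, 11.1 and 15.6 CPM, with a mean of 8.32 ± 6.11 (SD, n = 4). The groups did not overlap, and WT libraries 3 and 4 were well above WT libraries 1 and 2. A library with 0 counts allows up to 3 counts, which is 0.136 to 0.160 CPM over the 9 libraries.

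Pooled by group, Ifi202b had 2 counts in 102474680 for IRE1KO and 647 in 77397497 for WT. The rate in WT was 428.3 times that in IRE1KO (95% exact interval 118.1 to 3544, Clopper-Pearson, counting error only). The fitted log2 fold change, -8.33 ± 0.91 (SE), rests on the prior count added to the zeros and is no measure of size. It was the lowest of all 13712 tested genes. No other tested gene had 3 counts or fewer in every library of a genotype, in either direction. Both points describe the value for which the gene was chosen and give no further support. None of the Ifi202b transcript shared an exact stretch of 50 bases with a transcript of another gene in GENCODE M21. Reads with mismatches, and sequences that differ from this reference, were not covered by that search.

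**Figure D1:**
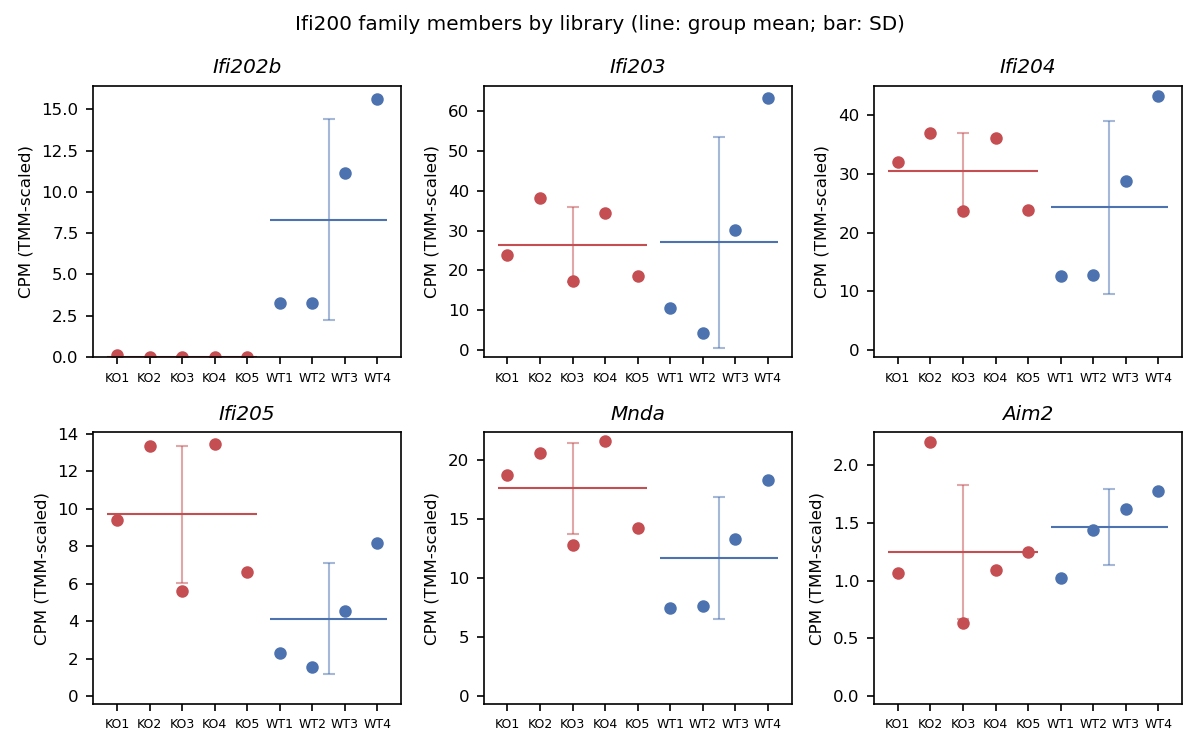
CPM (TMM-scaled, vertical axes) of each of the 6 genes in the 5 IRE1KO libraries (KO1 to KO5, red) and the 4 WT libraries (WT1 to WT4, blue), with the group mean as a line and the SD as a bar. Ifi202b is at or near 0 in all IRE1KO libraries and between 3.27 and 15.6 in WT, while each of the other 5 genes overlaps between the groups.

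Ifi203 and Ifi204, whose products have a pyrin domain and HIN domains, were expressed in all 9 libraries. Ifi203 (ENSMUSG00000039997, chr1:173920407-173942672, minus strand) measured 23.9, 38.1, 17.2, 34.5 and 18.5 CPM in IRE1KO libraries 1 to 5. Its WT values were 10.6, 4.21, 30.1 and 63.2 CPM in libraries 1 to 4. The lowest and the highest of the 9 libraries were both WT, a 15.0-fold range, and all 5 IRE1KO values lay between them. The means were 26.4 ± 9.44 and 27.0 ± 26.5 CPM (SD), and the log2 fold change was -0.03 ± 0.64 (SE).

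Ifi204 (ENSMUSG00000073489, chr1:173747293-173766943, minus strand) measured 32.1, 37.1, 23.7, 36.2 and 23.9 CPM in IRE1KO and 12.5, 12.7, 28.8 and 43.3 CPM in WT. WT libraries 1 and 2 were below every IRE1KO library, WT library 4 was above every one, and WT library 3 was among them. The means were 30.6 ± 6.49 and 24.3 ± 14.8 CPM, with a log2 fold change of 0.33 ± 0.37. For both genes the WT libraries thus spread wider than the IRE1KO libraries, and the groups overlapped. The sign for Ifi203 turned with the choice of libraries, from -0.39 to 0.82 when each was left out in turn.

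Ifi205 and Mnda had higher means in IRE1KO than in WT, with groups that overlapped. Ifi205 (ENSMUSG00000054203, chr1:174011998-174031810, minus strand) measured 9.42, 13.4, 5.63, 13.4 and 6.62 CPM in IRE1KO and 2.30, 1.54, 4.55 and 8.15 CPM in WT. WT library 4 exceeded IRE1KO libraries 3 and 5, and the other 3 WT libraries were below all IRE1KO libraries. The means, 9.69 ± 3.66 and 4.13 ± 2.97 CPM, differed by a log2 fold change of 1.23 ± 0.47, or 2.35-fold.

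Mnda (ENSMUSG00000026536, chr1:173896345-173913046, minus strand), named Ifi211 in GENCODE M21, measured 18.8, 20.6, 12.9, 21.6 and 14.3 CPM in IRE1KO. In WT it measured 7.51, 7.65, 13.3 and 18.3 CPM. Here WT libraries 3 and 4 lay within the IRE1KO range and libraries 1 and 2 below it. The log2 fold change was 0.59 ± 0.28, from means of 17.6 ± 3.88 and 11.7 ± 5.17 CPM.

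Reads of these relatives are hard to assign. Of the 50-base stretches of Mnda transcripts, 72.8% also occurred in another gene, 44.7% in Ifi205 and 30.1% in Ifi204. The shared part was 20.02% for Ifi204, 18.6% for Ifi205 and 12.2% for Ifi203. The levels of Mnda, and to a lesser degree those of Ifi204 and Ifi205, are uncertain to that extent, because the treatment of reads with several matches is not given in the sources used here. The annotated span of Mndal also overlaps those of Mnda and Ifi203 on the same strand.

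Aim2 (ENSMUSG00000037860, chr1:173350879-173466040, plus strand), the DNA sensor of the inflammasome, had the lowest mean level per kilobase in WT, with an SD that met that of Ifi205. It had 22, 43, 12, 24 and 26 counts in IRE1KO and 20, 28, 32 and 34 in WT. That is 1.25 ± 0.579 and 1.46 ± 0.325 CPM, with a log2 fold change of -0.23 ± 0.33. The IRE1KO libraries held both the lowest and the highest value.

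Ifi202b was the only 1 of the 6 genes whose groups did not overlap in CPM, beside 6.93% of all tested genes. Since the set was drawn up with this contrast known, nothing is read from that count. The median log2 fold change of the 6 was 0.15, with 3 positive and 3 negative, beside -0.01 over all tested genes.

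Levels are compared between genes per kilobase of annotated exon. In IRE1KO, Mnda (9.88 ± 2.17 CPM per kb) and Ifi204 (8.59 ± 1.82) stood highest and did not differ beyond their SDs. Ifi203 (3.94 ± 1.41) and Ifi205 (2.32 ± 0.876) followed, with SDs that touch, and Aim2 (0.357 ± 0.165) was far below them. In WT, Ifi204 (6.84 ± 4.15), Mnda (6.55 ± 2.90), Ifi202b (4.91 ± 3.60) and Ifi203 (4.03 ± 3.95) did not differ beyond their SDs. Ifi205 (0.990 ± 0.712) and Aim2 (0.418 ± 0.0930) were lowest, although the SD of Ifi205 met those of Aim2, Ifi203 and Ifi202b. These SDs include differences between libraries that the genes share. Within each WT library, Ifi202b was below both Ifi204 and Mnda per kilobase. In WT libraries 1 to 4 it measured 3.27, 3.28, 11.1 and 15.6 CPM over 1697 bases of exon. Mnda measured 7.51, 7.65, 13.3 and 18.3 CPM over 1785 bases.

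The summed CPM of the 6 genes ran from 60.0 to 111.4 CPM in IRE1KO and from 30.8 to 150.4 in WT. Ifi202b took 8.78, 10.6, 12.4 and 10.4% of it in WT libraries 1 to 4, although its own level there differed several-fold. In IRE1KO its share was 0.114% in library 1 and 0 in the other 4. Ifi205 took 9.38 to 12.6% in IRE1KO and 4.99 to 6.17% in WT, without overlap. The part taken by Ifi202b in WT lowers the shares of the other members there, and in CPM the groups of Ifi205 overlapped. No share over all genes was computed for this measure.

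**Figure D2:**
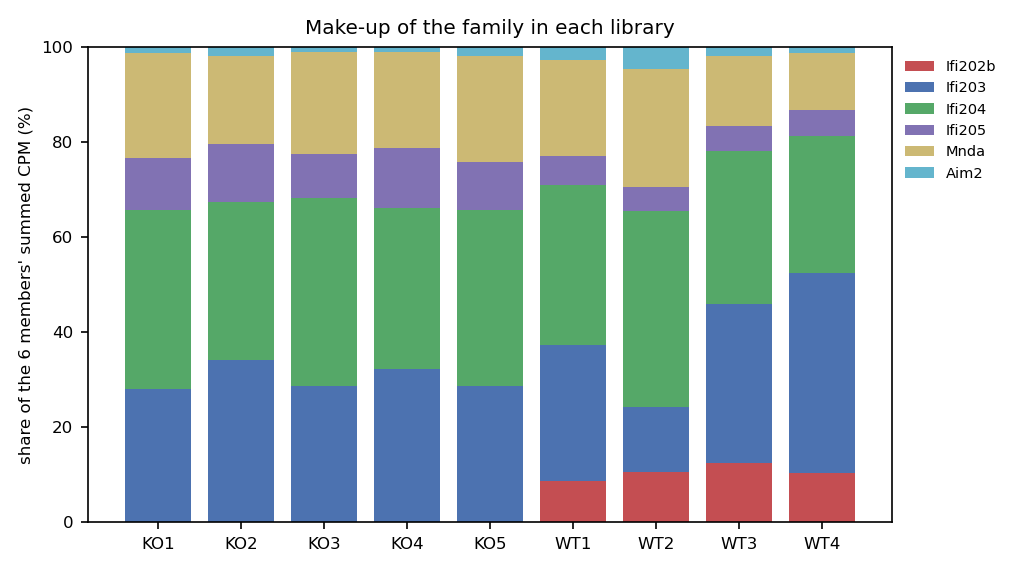
Share of the summed CPM of the 6 genes taken by each (percent, stacked bars that add to 100) in each of the 9 libraries. Ifi202b holds 8.78 to 12.4% in the 4 WT libraries and at most 0.114% in IRE1KO. Ifi205 holds a larger share in all IRE1KO libraries than in any WT library, although its CPM overlapped between the groups.

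The overall interferon state was read from 64 interferon-stimulated genes, none of them a member of the family, of which 63 were tested. None was called in IRE1KO against WT by edgeR, DESeq2 or limma voom, and 0 had an unadjusted edgeR p under 0.05. Their median log2 fold change was 0.26, with 51 positive and 12 negative, beside -0.01 over all genes. The median was -0.03 without WT library 2, 0.03 without WT library 1 and 0.97 without WT library 4. The 3 with the smallest p were Ifi27l1 (0.18 ± 0.09), the ubiquitin ligase Trim25 (0.45 ± 0.24) and Ifi35 (0.39 ± 0.30). The libraries themselves differed widely. Usp18, an interferon-induced brake on the interferon receptor, measured 79.7, 108.1, 45.0, 112.5 and 50.7 CPM in IRE1KO and 18.0, 4.67, 44.7 and 111.7 CPM in WT.

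The interferon level of a library, the mean log2 CPM of the 63 genes, was 4.82, 5.16, 4.34, 5.36 and 4.40 in IRE1KO. It was 3.57, 2.63, 4.68 and 5.75 in WT, so that the lowest and the highest libraries were again both WT. Macrophage RNA, described below, was not separated from this level. Over the 9 libraries, Ifi203 followed it with a Pearson r of 0.987 (two-sided exact permutation test, adjusted p = 7.58e-05 over 5 relations, raw p = 2.48e-05) and a Spearman rho of 0.967 (adjusted p = 0.000413). Ifi204 followed it with r = 0.960 (exact permutation, adjusted p = 7.58e-05, raw p = 3.03e-05) and rho = 0.967 (adjusted p = 0.000413). Without WT libraries 1 and 2, the farthest from the median, r was 0.95 for Ifi203 and 0.976 for Ifi204.

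Mnda had r = 0.915 (exact permutation, adjusted p = 0.00131, raw p = 0.000785) and rho = 0.867 (adjusted p = 0.00751). Ifi205 had r = 0.903 (exact permutation, adjusted p = 0.00136, raw p = 0.00109) and rho = 0.850 (adjusted p = 0.00759). Without WT libraries 1 and 2, r was 0.770 for Mnda (exact permutation p = 0.0563) and 0.609 for Ifi205 (exact permutation p = 0.147), so neither pooled relation passed without them. Leaving out these libraries also narrows the range of interferon levels and lowers the power. For these genes the values within each genotype were higher than the pooled ones. Ifi205 had r = 0.983 over the 5 IRE1KO libraries and 0.997 over the 4 WT libraries, and Mnda had 0.970 and 0.952. For Ifi203 the values within genotype were 0.965 and 0.997, and for Ifi204 0.968 and 0.953.

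Aim2 showed no such relation that the test could detect (r = 0.265, exact permutation, adjusted p = 0.489, and rho = 0.467, adjusted p = 0.213). Its low counts limit this reading. Ifi202b gave no pooled value because its libraries formed separate clusters by genotype, and within the 4 WT libraries r was 0.944, a value without a test. The IRE1KO libraries had interferon levels within the range of the WT libraries, and 4 of the 5 had no count of Ifi202b.

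**Figure D3:**
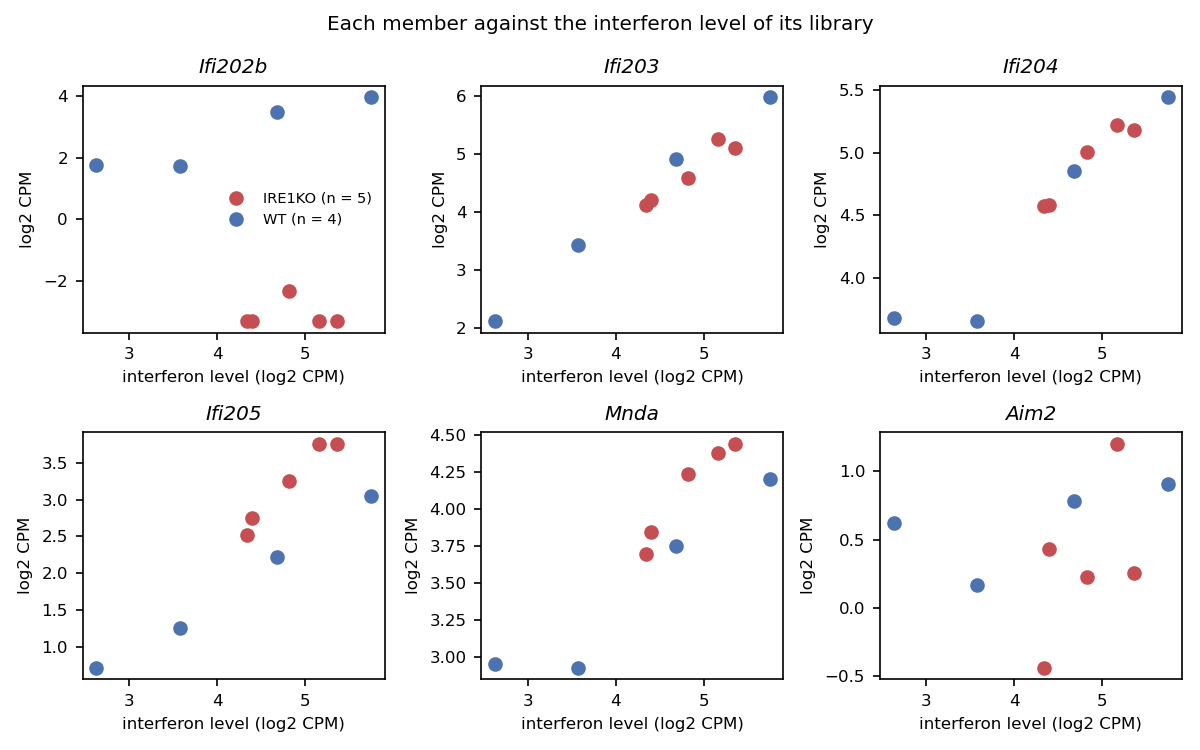
Level of each of the 6 genes (vertical axes, log2 CPM) against the interferon level of the library (horizontal axes, mean log2 CPM of 63 interferon-stimulated genes), with IRE1KO libraries in red and WT libraries in blue. Libraries with 0 counts of Ifi202b are drawn at the value that a prior count of 2 gives, and Ifi203 and Ifi204 follow a common line with r of 0.987 and 0.960.

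Levels relative to the interferon level are given as a description. The log2 CPM of Ifi205 minus the interferon level was -1.82 to -1.41 in IRE1KO (mean -1.61 ± 0.15, SD) and -2.70 to -1.91 in WT (mean -2.35 ± 0.33). The groups of Ifi205 and Ifi202b did not overlap on this measure, whereas those of Ifi203, Ifi204, Mnda and Aim2 did, and 257 of all 13712 tested genes (1.87%) did not overlap. The same level was subtracted from every gene, so a gene that does not follow it gains its spread. The share of 1.87% is therefore low by construction, beside 6.93% in CPM, and does not show that Ifi205 is unusual. With the interferon level as a covariate in the edgeR model, a fit added after seeing the data that called 1926 of all 13712 tested genes, the log2 fold change of Ifi205 was 0.90 ± 0.13 (SE). It was 0.35 ± 0.11 for Mnda, 0.08 ± 0.11 for Ifi204 and -0.27 ± 0.09 for Ifi203. That of Aim2 was -0.37 ± 0.32, and Ifi202b stayed at -8.60 ± 0.46. The SE of Ifi203 fell from 0.64 to 0.09 and that of Ifi205 from 0.47 to 0.13.

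**Figure D4:**
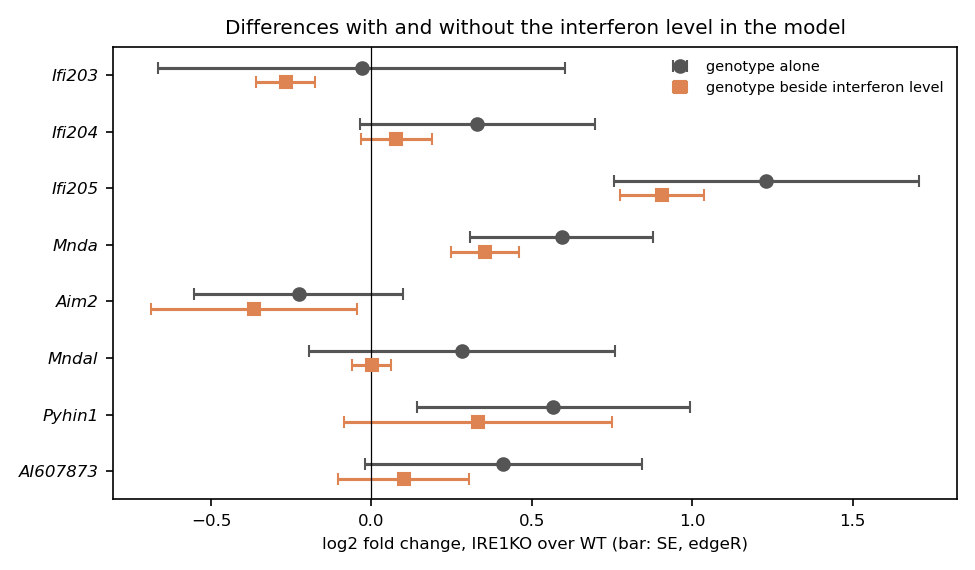
Log2 fold change of IRE1KO over WT (horizontal axis, bars are the SE from edgeR) for the 5 members other than Ifi202b and the 3 other tested PYHIN genes, without (grey) and with (orange) the interferon level as a covariate. Bars shorten with the covariate for Ifi203, Ifi204, Ifi205 and Mnda, and Ifi205 stays above 0 at 0.90.

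The count table held 6 further PYHIN genes, all within the same 680.9 kb span of chr1:173350879-174031810, in which 12 genes of the table start, all of them of the family. Cadm3, a cell adhesion gene on the other strand, overlaps the end of the span at Aim2, so reads there are told apart only by strand. Of the 6 further genes, 3 passed the filter on low counts and none was called by edgeR, DESeq2 or limma voom, with 0 at an unadjusted edgeR p under 0.05. Mndal measured 19.3 ± 5.13 CPM in IRE1KO and 15.9 ± 11.8 in WT (log2 fold change 0.28 ± 0.48). AI607873, named Ifi207 in GENCODE M21, measured 10.4 ± 3.99 and 7.82 ± 4.80 CPM (0.41 ± 0.43). Pyhin1, named Ifi209 there, measured 1.81 ± 1.09 and 1.22 ± 0.350 CPM (0.57 ± 0.43). Pydc3 averaged 0.354 and 0.428 CPM and Pydc4 0.379 and 0.285, too low to test, and BC094916 had 0 counts in every library. With the interferon level as a covariate, the value for Mndal was 0.00019 ± 0.06.

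**Figure D5:**
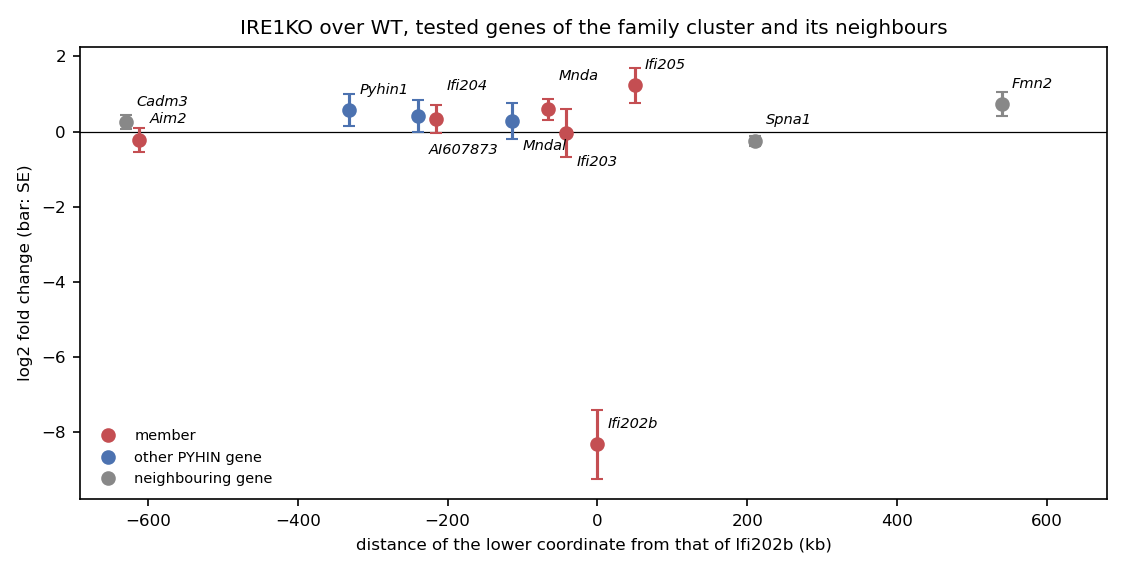
Log2 fold change of IRE1KO over WT (vertical axis, bars are the SE) for tested genes of the cluster and its neighbours, against the distance of each gene's lower coordinate from that of Ifi202b (horizontal axis, kb). Ifi202b stands at -8.33, a value set partly by the prior count, and Ifi205 next to it at 1.23, while the neighbours Cadm3 and Spna1 lie at 0.25 and -0.25.

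Genes around Ifi202b outside the family were examined by distance. Within 5 Mb, 70 were tested and edgeR called none, while 7 had an unadjusted p under 0.05, DESeq2 called 1 and limma voom 0. Within 10 Mb, 2 of 134 were called (1.49%). F5, coagulation factor V, was lower in IRE1KO at 0.946 ± 0.209 against 3.92 ± 2.09 CPM (log2 fold change -2.04 ± 0.37, edgeR adjusted p = 0.049). Enah, an actin regulator, was higher at 210.4 ± 7.16 against 164.9 ± 14.9 CPM (0.35 ± 0.06, edgeR adjusted p = 0.048). Both passed in only 2 of the 9 fits that left out a library, those without WT library 1 or WT library 4. Among genes known to differ in structure between inbred strains, Nnt measured 42.6 ± 2.13 and 47.1 ± 2.99 CPM (-0.15 ± 0.06, edgeR adjusted p = 0.232) and Glo1 27.0 ± 1.04 and 27.7 ± 3.08 CPM. None of these 2 was called by edgeR, DESeq2 or limma voom, with 1 at an unadjusted p under 0.05.

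The genes whose log2 CPM most resembled that of Ifi202b were ranked by Pearson r over the 9 libraries among 11832 genes, as a description of points that fall into separate clusters. Among the closest were Klf11 (0.991), Mbd5 (0.986), Abca6 (0.980), Id1 (0.969), Rdm1 (0.964), Bnip3 (0.959) and Dnalc1 (0.959), and none of these lies on chromosome 1. Abca6, an ABC transporter gene, fell from 9.50 ± 4.98 CPM in WT to 0.969 ± 0.190 in IRE1KO (log2 fold change -3.28 ± 0.34, edgeR adjusted p = 0.00937). Id1, a BMP target gene, fell from 32.6 ± 3.22 to 19.6 ± 0.869 CPM (-0.73 ± 0.07, edgeR adjusted p = 0.00928). Id1 passed in all 9 fits that left out a library and Abca6 in 5, while Klf11, Mbd5, Rdm1 and Dnalc1 passed in 2, those without WT library 1 or WT library 4. Bnip3 did not pass. Likeness to Ifi202b picks genes that differ by genotype, so these adjusted p-values and passes are not a separate test.

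For the other members the closest genes were largely of another kind. Ifi203 was closest to Tgtp2 (0.993), Ddx60 (0.992) and Gbp7 (0.992), and Ifi204 to Ifitm3 (0.993), Tor1aip1 (0.987) and Adar (0.984). Tgtp2, Gbp7 and Ifitm3 belong to the interferon-stimulated list. Ifi205 was closest to the microfibril gene Mfap5 (0.983), to Mnda (0.979) and to the proteoglycan gene Dcn (0.973), none of them in that list. Mnda was closest to Dnajc25 (0.984), Gsdmd (0.979) and Ifi205 (0.979), the last a pair that shares transcript sequence. Aim2 was closest to Osgepl1 (0.902), Commd10 (0.861) and Zfp236 (0.850), which is lower than for any other member.

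Inflammasome genes, a list of partners of Aim2 together with sensors of other inflammasomes, were little expressed or did not pass the test. Of 13 genes in the list, 9 were tested and none was called by edgeR, DESeq2 or limma voom, with 1 at an unadjusted edgeR p under 0.05 and a median log2 fold change of 0.12. Pycard, which encodes ASC, measured 2.23 ± 0.564 CPM in IRE1KO and 4.19 ± 2.10 in WT (-0.90 ± 0.34, edgeR adjusted p = 0.235). The pore-forming Gsdmd measured 38.6 ± 4.17 and 32.2 ± 6.04 CPM (0.26 ± 0.13), and the channel gene Panx1 differed by 0.12 ± 0.06. Il1b, an inflammasome product, had 0 counts in every library.

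In the cGAS-STING pathway, the other cytosolic DNA sensor, 1 of 12 tested genes was lower and none was higher. Over all tested genes, 0.379% were lower and 0.255% higher. Of the 12, 4 had an unadjusted edgeR p under 0.05, while DESeq2 called 1 gene of the list and limma voom 0. Dnase1l1, a DNase I-like nuclease, fell from 11.3 ± 1.66 CPM in WT to 6.99 ± 0.847 in IRE1KO (-0.69 ± 0.12, edgeR adjusted p = 0.048). It too passed in only 2 of the 9 fits that left out a library, those without WT library 1 or WT library 4. The median of the 12 was 0.08. Of 19 tested interferon receptor and signalling genes, none was called by edgeR, DESeq2 or limma voom, 1 had an unadjusted edgeR p under 0.05, and the median was 0.02. The 3 with the smallest p were the kinase Tyk2 (-0.19 ± 0.06), the feedback inhibitor Socs3 (-0.35 ± 0.22) and the receptor chain Il10rb (-0.07 ± 0.05).

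PYHIN genes are abundant in macrophages, so markers of these cells were read in the same libraries. Of 25 macrophage and osteoclast markers, none was called by edgeR, DESeq2 or limma voom, 1 had an unadjusted edgeR p under 0.05, and the median log2 fold change was 0.10. The 3 with the smallest p were Cx3cr1 (0.68 ± 0.27), Ctsk (0.31 ± 0.14) and Cd52 (0.60 ± 0.44). Their summed level was 406.9 to 693.8 CPM in IRE1KO and 261.6 to 646.5 in WT. Csf1r, a defining receptor of macrophages, measured 29.9, 30.6, 18.4, 37.6 and 18.9 CPM in IRE1KO and 25.3, 9.70, 34.5 and 25.5 in WT. In IRE1KO, libraries 2 and 4 were highest in Csf1r, Ifi205 and Mnda. In WT, Ifi205 and Mnda were highest in library 4. The summed level of the markers was also highest there (646.5 CPM, against 623.7 in library 3). Csf1r, and the sum without Ctsk (473.3 against 443.9), were highest in library 3. Csf1r, both sums and Ifi205 were lowest in WT library 2, and Mnda was nearly equal in libraries 1 and 2 (7.51 and 7.65 CPM). The sum without Ctsk was 401.9, 413.1, 229.4, 507.6 and 248.0 CPM in IRE1KO libraries 1 to 5, which ranks them as the interferon level does. In WT libraries 1 to 4 it was 317.7, 138.3, 473.3 and 443.9 CPM, the same ranking except for libraries 3 and 4. In bulk RNA, fewer cells of a type and less RNA per cell cannot be told apart. The part of macrophage RNA in the levels of Ifi203, Ifi204, Ifi205 and Mnda, and in the interferon level and its correlations, was not tested.

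Some genes listed as markers of other cells that the sort could hold were lower in IRE1KO. Of 5 tested adipocyte markers, 3 were lower in IRE1KO, Plin4 (log2 fold change -1.49), Lpl (-1.09) and Fabp4 (-1.44), and the summed level was 56.4 to 63.9 CPM in IRE1KO and 81.6 to 142.3 in WT. Adipoq of the same list averaged 0.0102 CPM in IRE1KO and 0.229 in WT. Of the 9 listed adipocyte genes, 2 had 0 counts in every library, and whether adipocytes were present was not tested. Of 6 tested glial markers, 1 was lower, the neurotrophin receptor gene Ngfr (-3.44), and the summed level was 12.99 to 19.0 and 21.1 to 87.4 CPM. Of 8 tested endothelial markers, 1 was lower, Pecam1 (-1.99), at summed levels of 22.6 to 26.8 and 24.6 to 38.7 CPM. Pecam1 was near the floor, with 6, 3, 1, 5 and 3 counts in IRE1KO and 11, 18, 12 and 15 in WT. The log2 fold change was negative for 7 of the 8 and positive for 1 (0.87). Over all tested genes, 0.379% were lower in IRE1KO. An unadjusted edgeR p under 0.05 was found for 4 adipocyte, 6 glial and 2 endothelial markers. DESeq2, which also covers genes below the edgeR filter, called 4, 7 and 1 in these lists, and limma voom called 0 in each. Plin4, Lpl, Fabp4, Ngfr and Pecam1 each passed in 2 of the 9 fits that left out a library, those without WT library 1 or WT library 4. None of 14 tested osteoblast-lineage markers was called by edgeR, 5 had an unadjusted p under 0.05, DESeq2 called 4 and limma voom 0, and those with the smallest p included Ibsp (-2.06) and Sparc (0.25). The summed adipocyte and glial levels did not overlap between the groups, as for Ifi202b, and their part in its difference was not tested. Among single tested genes, 6.93% did not overlap, and no such share was computed for sums.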

How the data were processed

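PolyA RNA of 9 libraries was sequenced from directional libraries prepared and run as a single batch, per the labels' protocols. The deposited table holds raw counts per gene, as the authors made them. STAR, limma and the mm10 build are named in the submitters' processing notes, while the counting program, annotation release, strand setting and read length were not given in the sources used here. A strand setting would not separate Mndal from Mnda and Ifi203.

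The members and the gene lists were chosen with earlier results of these data known. Genes were filtered with filterByExpr, scaled by TMM and tested with edgeR 4.0.16 (glmQLFit robust, glmQLFTest, all 9 libraries, genotype only, Benjamini-Hochberg over 13712 genes) in R 4.3.3. Alternatives used limma 3.58.1 (voom), DESeq2 1.42.0, library totals without TMM, no filter, a replicate block and leaving out each library. CPM are counts over the TMM-scaled library size, and log2 CPM use a prior count of 2. Library totals of 18784636 to 22028075 counts put the floor of 3 counts at 0.136 to 0.160 CPM. Intervals cover counting error only. Correlations were tested by exact permutation in NumPy 2.4.6, with ranks from SciPy 1.17.1.

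Named were the 6 members, the other PYHIN genes, genes inside the cluster, Ern1 and Xbp1 (log2 fold change 0.11 ± 0.04, edgeR adjusted p = 0.218), the called members of each list (at most 4) or the 3 with the smallest p, the 8 genes most like Ifi202b and the 3 most like each other member. Some genes that this rule selects are not reported here. Runx2, Col1a1, Bglap, Csf1r, Usp18, Il1b, Adipoq, Cadm3, Spna1, F5 and Enah were named after their values were seen. Positions and exon lengths come from GENCODE M21, which gave a position for 24957 of the 25860 genes, and promoters from RefSeq GRCm38.p6. On simulated counts with 200 of 13712 genes changed, the edgeR script recovered 72% of those changed 1.5-fold and 96% of those changed 2-fold. These percentages describe the run of the script only, and the recovery in the measured libraries was not tested.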

Additional observations from a re-analysis of the deposited data

Results flagged for a closer look

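Among 26 sets of 4 or 5 values searched, Ifi202b in IRE1KO library 1 stood apart from the other IRE1KO libraries, at 0.0971 CPM against 0 in each of the other 4. The value stands for 2 counts, below the floor of 3 counts. Where the other 4 values are all 0, any count sets a library apart, so the usual chance rate of about 1 in 20 groups does not apply to it.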

How the results depend on the processing

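The count of genes called in IRE1KO against WT, 87, moved under every alternative run, and the cause was not tested. It was 46 on library totals without TMM, 45 without a filter on low counts, 16 with limma voom and 582 with DESeq2. With each library left out in turn it ran from 2 (without IRE1KO library 2) to 1192 (without WT library 1), with 399 without WT library 4 and at most 8 otherwise. With the interferon level as a covariate, chosen after seeing the data, it was 1926. The replicate block left 0 calls by edgeR, with 1594 genes at an unadjusted p under 0.05. The same libraries numbered 1 to 4 without blocking, also added later, gave 3. Libraries of the same number correlated at 0.169, -0.115, -0.206 and 0.462 in their deviations, so the numbers do not pair the libraries. The log2 fold change of Ifi202b was -10.37 without IRE1KO library 1, which holds both of its counts in that group. Without WT library 4, that of Ifi203 was 0.82, of Ifi204 0.76, of Ifi205 1.79 and of Mnda 0.89. Each of these 4 moved by more than its SE in the main fit. In the other alternatives the members' log2 fold changes moved by less than that SE. No correlation with the interferon level changed its side of the threshold on library totals, with a prior count of 0.5 or with a library left out. Without WT libraries 1 and 2 together, those of Mnda and Ifi205 did. At about 1 CPM, counting error limits what can be said of Aim2.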
